A study of Mus musculus with 9 samples.

Results

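Toll-like receptors are the sensors by which macrophages detect microbial lipids, proteins and nucleic acids, and the genes described here encode 7 of them together with Cd14 and Ly86. They were taken by symbol from the deposited table. Of 10 symbols listed, 9 are among its 22036 genes, all 9 were above the filter on low values, among 14955 genes tested, and the adaptor Myd88 was not analysed here. The RNA came from microglia, the brain's own macrophages, which had been sorted by flow cytometry. The mice were wild-type C57BL/6 females and were young (6 months), middle-aged (15 months) or old (23 months). The labels name no treatment and no altered allele in any group. Each age had 3 libraries and each library pooled the cells of 3 mice, so errors describe pools and not single animals. The sort gate was not named in the sources used here.

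At the cell surface, TLR2 pairs with TLR1 or TLR6 to recognise bacterial lipopeptides, and TLR4 recognises lipopolysaccharide with the co-receptor CD14 and the secreted protein MD-2, encoded by Ly96. Ly86 encodes MD-1, the partner of the TLR4-related receptor CD180. TLR3, TLR7 and TLR9 sit in endosomes and bind double-stranded RNA, single-stranded RNA and unmethylated CpG DNA. Most of these receptors signal through MyD88 to NF-kB and, from endosomes, to interferon regulatory factors, whereas TLR3 uses the adaptor TRIF and TLR4 uses both. Microglia are known as the main cells of the brain that carry them.

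The libraries held the defining genes of microglia at high levels. Mean values of 10 microglia markers at each age lay between 14.1 for Sall1 in old libraries and 18.9 for Csf1r in young ones, on the log2 scale of normalized counts. Transcripts of other cells were present too. The neutrophil granule gene Ngp averaged 17.4 in young, 18.1 in middle-aged and 17.3 in old libraries. Old replicate 3 stood apart from the other libraries, at 29.9 on a first principal component that held 34.7% of the variance, where the others lay between -14.4 and 5.9. No source used here gives read totals, and the depth is unknown. In bulk RNA of sorted cells, fewer cells of a type and less RNA per cell cannot be told apart.

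Tlr2, at chr3:83836272-83841767 on the minus strand of GRCm38, rose in old against young microglia. Its log2 values were 12.98, 13.19 and 13.03 in young, 13.76, 13.73 and 13.46 in middle-aged and 14.07, 14.07 and 13.94 in old libraries. Every middle-aged library lay above every young one, and every old library above every middle-aged one, an order that 1.05% of all tested genes showed. In old against young libraries the gene rose 1.95-fold (95% interval 1.66 to 2.28), a log2 difference of 0.96 ± 0.10 (SE, n = 3 per age). The limma moderated test, adjusted by the Benjamini-Hochberg method over all tested genes, gave an adjusted p of 0.000926. The call held whichever of the 9 libraries was dropped, with log2 differences between 0.92 and 1.02. Monocyte marker genes had a median old minus young difference of 0.46 over 16 genes. Of these, 4 were called higher, against 1.70% of all tested genes. The summed level of neutrophil markers overlapped between old and young libraries. The part of either cell type in the Tlr2 values was not tested.

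Over the first interval, middle-aged against young, Tlr2 differed by 0.58 ± 0.10 on the log2 scale, 1.50-fold, and was not called here (limma, Benjamini-Hochberg adjusted p = 0.0743). In the authors' deposited table the same comparison had a log2 fold change of 0.67 with an adjusted p of 0.000115. Over the second, old against middle-aged, the log2 difference was 0.38 ± 0.10, 1.30-fold, and adjusted p was 0.251 (limma, Benjamini-Hochberg). The test of the difference between these steps gave -0.21 ± 0.18 with adjusted p = 0.81 (limma, Benjamini-Hochberg), so neither interval was shown to hold more of the change. For the 9 genes this test gave 0 calls and 0 at an unadjusted p under 0.05, beside 0 calls and 7.90% at that p over all genes. In the authors' deposited table the old against young log2 fold change of Tlr2 was 1.20, with an adjusted p of 1.96e-19.

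The upstream sequences of Tlr2 and of Ly86, the other gene called in old libraries, are given because both rose, with matches to the NF-kB pattern GGGNNNNNCC, read on both strands, in capitals. They come from RefSeq windows on GRCm38.p6, and bases inside the gene as GENCODE M21 draws it were left off. The first lies at chr3:83841768-83841858 on the minus strand and the second at chr13:37345095-37345207 on the plus strand:

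Tlr2: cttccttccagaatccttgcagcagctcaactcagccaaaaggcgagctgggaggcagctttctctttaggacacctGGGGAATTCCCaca

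Ly86: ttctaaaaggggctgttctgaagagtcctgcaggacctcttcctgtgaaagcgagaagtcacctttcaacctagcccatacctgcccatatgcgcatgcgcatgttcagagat

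The capitals in the window of Tlr2 are overlapping matches, and the window of Ly86 held none. Of 32851 RefSeq windows of 250 bases before a gene start, 45.8% hold the pattern. The PU.1 core GAGGAA, in 23.3% of all windows, and the AP-1 pattern TGANTCA, in 6.75%, were in neither 250-base window. Of the 9 genes 6 matched the RefSeq promoter table. Among these, the window of Tlr3 held 2 matches to the NF-kB pattern and 1 of the windows of Tlr6 held 1. Neither Tlr3 nor Tlr6 was called between ages. These are matches of letters, and binding was not measured.

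**Figure D1:**
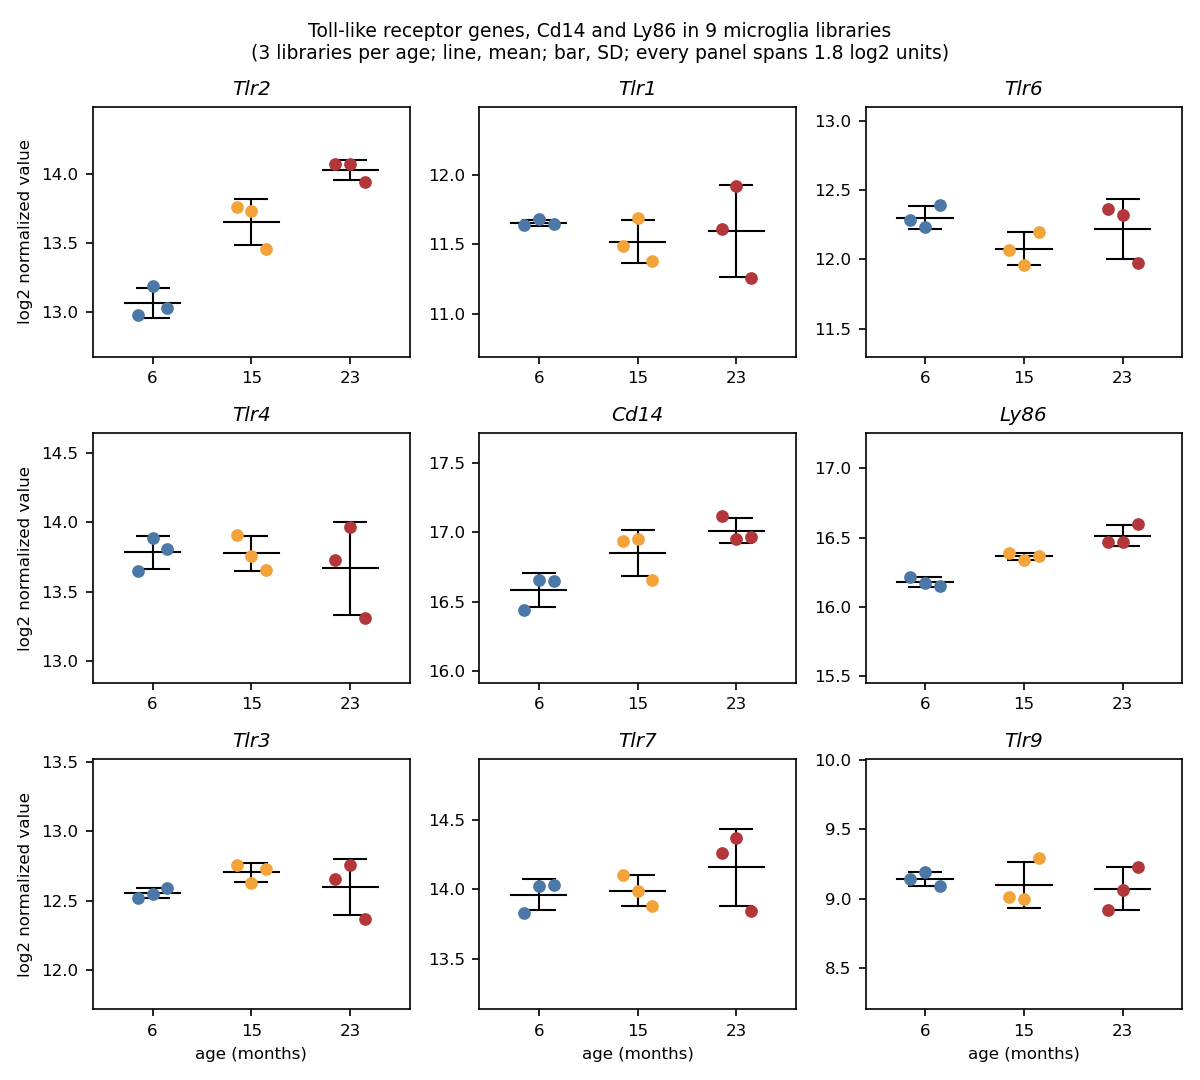
Log2 normalized value (vertical axes, each panel spanning the same number of log2 units) of 9 genes in 3 libraries at each of 3 ages (horizontal axes, months). Points are libraries, lines are means and bars are SDs. Tlr2 climbs without overlap between ages, Cd14 and Ly86 are higher in every old than in every young library, and the old libraries of the other 6 genes overlap the young ones.

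Tlr1 and Tlr6, whose products pair with TLR2, showed no called difference between ages. Tlr1 had log2 values of 11.64, 11.68 and 11.65 in young, 11.49, 11.69 and 11.38 in middle-aged and 11.61, 11.92 and 11.26 in old libraries. The young libraries lay within a narrow band that the old ones spanned on both sides. Its old minus young difference was -0.06 ± 0.15 on the log2 scale, a ratio of 0.958 with a 95% interval of 0.76 to 1.21 (limma, Benjamini-Hochberg adjusted p = 0.868). Tlr6 had values of 12.28, 12.23 and 12.39 in young, 12.07, 11.96 and 12.20 in middle-aged and 12.36, 12.32 and 11.97 in old libraries. All 3 middle-aged libraries lay below the young ones, and the old ones overlapped both other ages. The middle-aged minus young difference of Tlr6 was -0.22 ± 0.12 (limma, Benjamini-Hochberg adjusted p = 0.541). The old minus young ratio was 0.945 (95% interval 0.787 to 1.13, adjusted p = 0.768). Without old replicate 3, the lowest old library for both genes, their old minus young differences turned to 0.10 for Tlr1 and 0.04 for Tlr6, neither called.

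Tlr1, at chr5:64924679-64933563, and Tlr6, at chr5:64952031-64960097, lie on the same strand of chromosome 5. Their coding sequences share long identical stretches, so their values depend on how reads common to both were counted, which is not known here. In GENCODE M21, 19.4% of the 50-base windows in the coding sequence of Tlr1 also occur in Tlr6. Among the 36 pairs of the 9 genes this was the 1 pair that shared any such window, and the longest identical run of any other pair was 16 bases. The longest run common to both genes, 229 bases, is shown because no read that falls inside it can be assigned to either gene:

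Tlr1 and Tlr6: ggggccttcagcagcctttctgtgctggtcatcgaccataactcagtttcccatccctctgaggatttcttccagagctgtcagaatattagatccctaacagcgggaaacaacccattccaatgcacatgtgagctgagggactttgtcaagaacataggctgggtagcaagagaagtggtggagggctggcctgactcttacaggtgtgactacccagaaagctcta

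The ratio of Tlr2 to its partners was therefore also taken against the sum of Tlr1 and Tlr6. The sum does not depend on any division of common reads between them, but would lack reads left uncounted. Within a library, Tlr2 minus that sum was -0.02, 0.21 and -0.03 on the log2 scale in young, 0.95, 0.90 and 0.62 in middle-aged and 1.04, 0.94 and 1.28 in old libraries. Both later ages lay above every young library, and they overlapped each other. The mean was 1.09 ± 0.18 in old and 0.05 ± 0.13 in young libraries (SD, n = 3 each), a difference of 1.03 with an exact two-sided permutation p = 0.1, the smallest that 3 against 3 libraries can give. Against Tlr4, Tlr2 lay at 0.34, 0.10 and 0.63 in old and at -0.67, -0.70 and -0.77 in young libraries (exact two-sided permutation p = 0.1). These are ratios of normalized counts with no correction for length, and their change between ages is what is compared. Cd14 minus Tlr2 was 3.05, 2.88 and 3.04 in old and 3.46, 3.47 and 3.61 in young libraries, so every old library lay below every young one (difference -0.53, exact two-sided permutation p = 0.1). Ly86 minus Cd180 was 4.08, 4.15 and 3.67 in old and 3.56, 3.79 and 3.53 in young libraries, which overlapped (difference 0.34, exact two-sided permutation p = 0.2). These exact p-values cover 7 such ratios, listed with 3 age pairs each, and none can pass an adjustment.

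**Figure D2:**
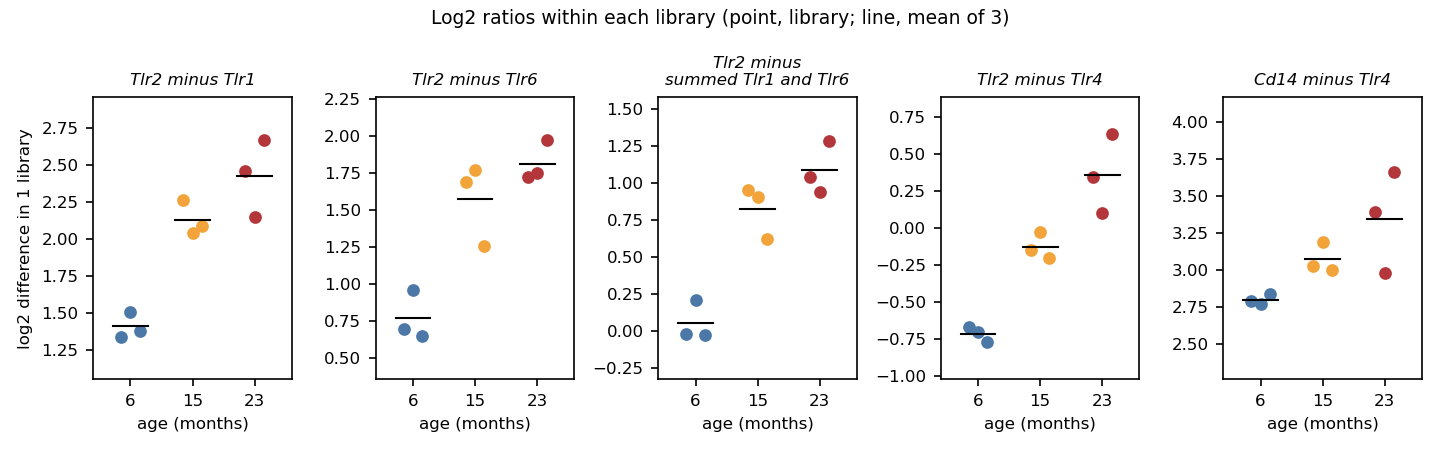
Log2 ratios within a library (vertical axes) of Tlr2 to Tlr1, Tlr6, their sum and Tlr4, and of Cd14 to Tlr4, at 3 ages (horizontal axes, months). Points are libraries and lines are means of 3. In each of these 5 panels every old library lies above every young one.

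The lipopolysaccharide receptor gene Tlr4 had values of 13.65, 13.89 and 13.81 in young, 13.91, 13.76 and 13.66 in middle-aged and 13.73, 13.97 and 13.31 in old libraries. Old replicates 2 and 3 were the highest and the lowest of all 9. The old minus young ratio was 0.926 with a 95% interval of 0.734 to 1.17 (limma, Benjamini-Hochberg adjusted p = 0.748), which leaves room for a change in either direction. Without old replicate 3 the log2 difference was 0.07 in place of -0.11.

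Cd14, which encodes the co-receptor that hands lipopolysaccharide to TLR4 and also serves TLR2, was higher in every old than in every young library and missed the threshold narrowly. Its values were 16.44, 16.66 and 16.65 in young, 16.94, 16.95 and 16.66 in middle-aged and 17.12, 16.95 and 16.97 in old libraries. Old and young libraries did not overlap, while middle-aged replicate 3 lay level with the upper young ones. The old minus young difference was 0.43 ± 0.10 on the log2 scale, 1.35-fold (95% interval 1.16 to 1.57), and was not called (limma, Benjamini-Hochberg adjusted p = 0.0535). It was called without middle-aged replicate 3 (adjusted p = 0.0335), and over all 21 alternatives adjusted p ran from 0.0016 to 0.188. The low end is the authors' deposited table, where the log2 fold change was 0.52. Middle-aged minus young was 0.27 ± 0.10 (adjusted p = 0.316) and old minus middle-aged was 0.16 ± 0.10 (adjusted p = 0.615), both by limma with Benjamini-Hochberg adjustment. Within a library, Cd14 minus Tlr4 was 3.39, 2.98 and 3.66 on the log2 scale in old and 2.79, 2.77 and 2.84 in young libraries, which did not overlap (exact two-sided permutation p = 0.1). Cd14 lies on chromosome 18 at 36725067 to 36726798 of GRCm38.

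Ly86, at chr13:37345208-37419036 on the plus strand, rose by a smaller step in old against young libraries. Its values were 16.22, 16.17 and 16.15 in young, 16.39, 16.34 and 16.37 in middle-aged and 16.47, 16.47 and 16.60 in old libraries. As for Tlr2, the ages followed each other without overlap, and the spread within an age was the smallest of the 9 genes, with a pooled SD of 0.0497. The log2 difference was 0.33 ± 0.07, 1.26-fold (95% interval 1.14 to 1.40), with adjusted p = 0.0327 (limma, Benjamini-Hochberg). The call was near the threshold. It held without middle-aged replicate 3 and without old replicate 2, and was lost without any 1 of the other 7 libraries, where adjusted p ran up to 0.18. It was also lost with quantile normalization (log2 0.27, adjusted p = 0.124) and with only old and young libraries fitted (adjusted p = 0.0843). Middle-aged minus young was 0.19 ± 0.07 (adjusted p = 0.312) and old minus middle-aged was 0.15 ± 0.07 (adjusted p = 0.486). In the authors' deposited table the old against young log2 fold change was 0.42, with an adjusted p of 0.000834.

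Cd180, the receptor that MD-1 accompanies, showed no called difference between ages. It had log2 values of 12.66, 12.37 and 12.61 in young, 12.50, 12.01 and 12.43 in middle-aged and 12.39, 12.32 and 12.92 in old libraries. Old and young libraries overlapped, with a difference of -0.01 ± 0.18 (limma, Benjamini-Hochberg adjusted p = 0.99). Ly96, the MD-2 partner of TLR4, had values of 10.64, 10.57 and 10.59 in young, 10.97, 11.03 and 10.89 in middle-aged and 10.92, 10.58 and 10.88 in old libraries. Its middle-aged minus young difference was 0.36 ± 0.11 (limma, Benjamini-Hochberg adjusted p = 0.246), against a log2 fold change of 0.52 with an adjusted p of 0.00148 in the authors' deposited table. Cd180 and Ly96 were singled out here after their values were seen.

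The endosomal receptors showed no called difference at any age. Tlr3, the sensor of double-stranded RNA, had values of 12.52, 12.55 and 12.59 in young, 12.76, 12.63 and 12.73 in middle-aged and 12.66, 12.76 and 12.37 in old libraries. Middle-aged libraries all lay above young ones, with a difference of 0.15 ± 0.11 (limma, Benjamini-Hochberg adjusted p = 0.661). The old minus young ratio was 1.03 (95% interval 0.877 to 1.22), and an antisense gene, Gm45542, overlaps Tlr3, so reads of the pair cannot be told apart without strand. Tlr7, the sensor of single-stranded RNA, had values of 13.83, 14.02 and 14.03 in young, 14.10, 13.99 and 13.88 in middle-aged and 14.26, 14.37 and 13.84 in old libraries. Old replicates 1 and 2 were the highest of the 9, while old replicate 3 lay level with the lowest young library. Its old minus young ratio was 1.14 (95% interval 0.93 to 1.40, limma, Benjamini-Hochberg adjusted p = 0.509), and without old replicate 3 the log2 difference was 0.35 in place of 0.19, with adjusted p = 0.136. Tlr9, the sensor of unmethylated DNA, had the lowest values of the 9 genes, 9.14, 9.19 and 9.09 in young, 9.01, 9.0 and 9.29 in middle-aged and 8.92, 9.06 and 9.23 in old libraries. The 3 ages overlapped, and the old minus young ratio was 0.954 (95% interval 0.797 to 1.14, adjusted p = 0.804).

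**Figure D3:**
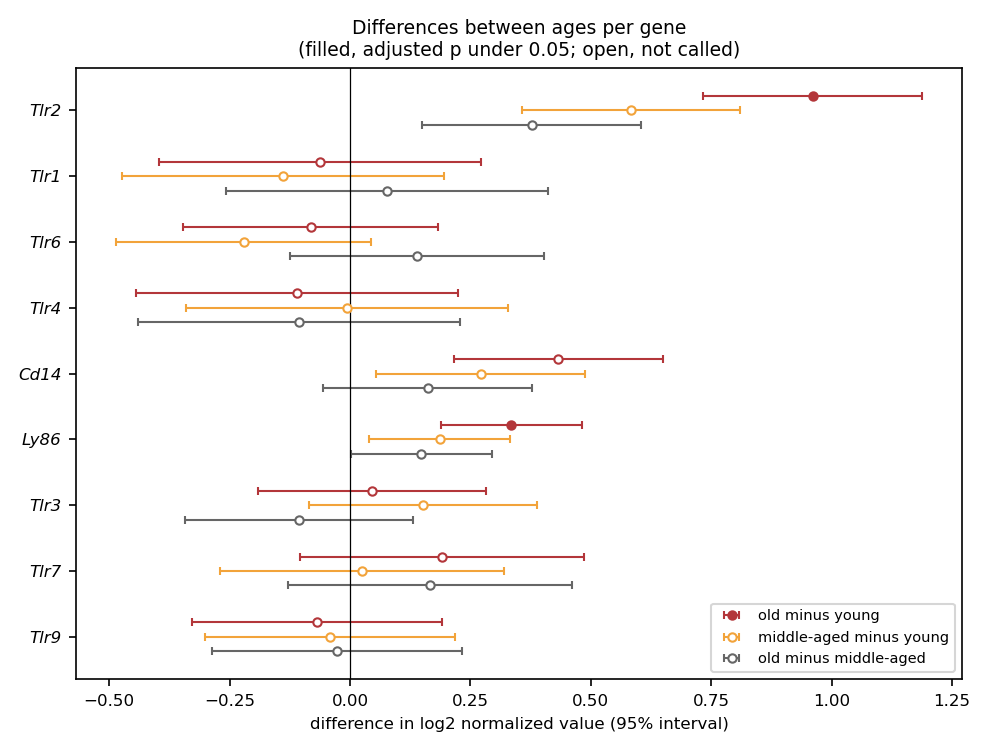
Difference between ages in log2 normalized value (horizontal axis) for 9 genes (rows), with 95% intervals from the limma fit. Filled points are called at adjusted p under 0.05, which holds for Tlr2 (0.96) and Ly86 (0.33) in old minus young. Open points are not called.

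Counted together, 2 of the 9 genes rose, 0 fell and 7 were not called in old against young libraries, where 1.70% of all tested genes rose and 0.301% fell, 2.00% in all. An unadjusted p under 0.05 was reached by 3 of the 9 and by 16.8% of all genes. In the authors' deposited table Tlr2, Cd14 and Ly86 were called higher for this pair, against 4.72% of genes there. The median log2 difference of the 9 genes was 0.05, against -0.01 over all tested genes, and 5 differences were positive and 4 negative. Old and young libraries did not overlap for 3 of the 9 (Tlr2, Cd14 and Ly86, all above), against 24.5% of all genes in either direction. In middle-aged against young libraries limma called 0 of the 9, and 0.114% of all genes, while 3 of the 9 had an unadjusted p under 0.05 beside 11.4% of all genes. The authors' deposited table called 1 of them there, Tlr2, beside 3.26% of genes called higher. Libraries of this pair did not overlap for 5 of the 9 (Tlr2, Cd14, Ly86 and Tlr3 above, Tlr6 below), against 21.6% of all genes. In old against middle-aged libraries limma called 0 of 9, and 0.174% of all genes, with 2 of the 9 at an unadjusted p under 0.05 beside 10.2% of all genes. The authors' deposited table called 0 of the 9 there, with 0.859% of genes higher and 0.466% lower. Old and middle-aged libraries did not overlap for 2 of the 9 (Tlr2 and Ly86), against 12.9% of all genes. The F test over the 3 ages called 1 of the 9, Tlr2 (adjusted p = 0.00313), and 0.836% of all genes.

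Old replicate 3 was the lowest of the old libraries for Tlr1, Tlr2, Tlr3, Tlr4, Tlr6 and Tlr7, and the lowest of all 9 libraries for Tlr1, Tlr3 and Tlr4. It was the highest for Ly86. Leaving it out gave 1 called gene of the 9, Tlr2, with a log2 difference of 1.01 and adjusted p = 0.00215 (limma, Benjamini-Hochberg). Leaving out each library in turn changed the sign of the old minus young difference for Tlr1, Tlr3, Tlr4, Tlr6 and Tlr9, none of which was called in any such fit.

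To compare levels between genes, values were taken per kilobase of exon. Cd14 had the highest level at each age, with a log2 value per kilobase of 15.79 in young, 16.06 in middle-aged and 16.22 in old libraries, above 99.8% of tested genes at each. Ly86 followed at 14.32, 14.50 and 14.65 in the same order of ages. In young libraries Tlr7 came next at 11.93, followed by Tlr2 at 11.47 and Tlr4 at 11.31, and the libraries of the last pair overlapped. In middle-aged libraries Tlr2 at 12.06 and Tlr7 at 11.96 overlapped. In old libraries Tlr2 came before Tlr7, at 12.44 and 12.13, without overlap. The step between them is small, and per-kilobase levels also depend on which exons are used, which was not measured. Tlr6, Tlr3 and Tlr1 lay between 9.78 and 10.40 at all ages, with Tlr6 above Tlr3 without overlap in young libraries (10.40 and 10.17) and the libraries of the pair overlapping at both later ages. Tlr9 was last, at 7.34, 7.30 and 7.27, where 50.1% of tested genes had a lower level in young libraries. Tlr2 stood above 94.6% of tested genes in young, 96.3% in middle-aged and 97.1% in old libraries.

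**Figure D4:**
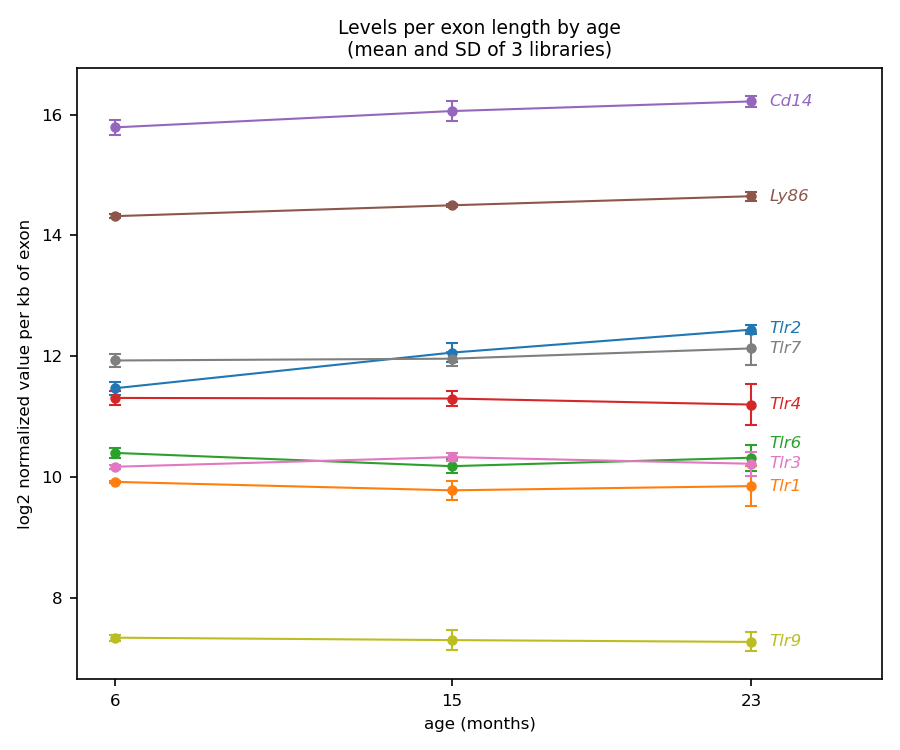
Log2 normalized value per kilobase of exon (vertical axis) against age in months (horizontal axis) for 9 genes. Points are means and bars SDs of 3 libraries. The line of Tlr2 lies just above that of Tlr4 at 6 months (11.47 and 11.31), where their libraries overlap. It lies above that of Tlr7 at 23 months (12.44 and 12.13).

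The other receptors of the family were listed for comparison. Of 5 tested, 0 were called in any pair of ages by limma. Over all genes 2.00% were called in old against young, 0.114% in middle-aged against young and 0.174% in old against middle-aged. The flagellin receptor gene Tlr5 stood closest to the threshold, with values of 10.83, 10.92 and 10.80 in young, 10.15, 10.59 and 10.53 in middle-aged and 10.25, 10.51 and 9.93 in old libraries. Both later ages lay below every young library. Its old minus young difference was -0.62 ± 0.16, a ratio of 0.65 (limma, Benjamini-Hochberg adjusted p = 0.0784, with an unadjusted p of 0.00261), and the authors' deposited table called it lower (log2 fold change -0.72, adjusted p = 0.0101, where 2.90% of genes were lower). Tlr12, in mouse a sensor of profilin, had an old minus young difference of -0.07 ± 0.16 and a middle-aged minus young one of -0.29 ± 0.16 (adjusted p = 0.549).

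Across 7 lists of the wider pathway, 79 genes were tested, and in old against young libraries 9 rose and 0 fell, against 1.70% and 0.301% of all genes, which is the background for each list that follows. The authors' deposited table called 16 higher and 2 lower, against 4.72% and 2.90% of genes there. The 2 lower were Tlr5 and Nfkb1, the second with a log2 fold change of -0.40 and an adjusted p of 0.00382 there. Nfkb1 was singled out after its values were seen. Of 13 accessory and trafficking genes 3 rose and 10 were not called, with a median log2 difference of 0.07. Rab7b encodes a small GTPase known to promote the lysosomal breakdown of TLR4 and TLR9. It had values of 10.62, 10.84 and 10.89 in young, 11.58, 11.37 and 10.95 in middle-aged and 12.24, 12.16 and 12.03 in old libraries. Rab7b rose 2.57-fold in old over young libraries (log2 1.36 ± 0.15; limma, Benjamini-Hochberg adjusted p = 0.00123) and kept its call whichever library was left out. Ctsb and Ctss, lysosomal proteases that take part in trimming endosomal receptors, rose 1.37-fold and 1.26-fold (log2 0.46 ± 0.09 and 0.33 ± 0.07, adjusted p = 0.0318 and 0.043). They kept their calls in 3 and 2 of 9 fits, each made without 1 library, and in 10 and 4 of 12 other alternatives. Quantile normalization, which forces all libraries to 1 distribution, brought the log2 differences to 0.21 for Ctsb and 0.09 for Ctss (adjusted p = 0.169 and 0.445).

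Of 5 TIR adaptor genes 0 were called, and their median was -0.08. Tirap, the bridging adaptor of TLR2 and TLR4, differed by -0.05 ± 0.11 and Ticam2, the bridging adaptor of TLR4 to TRIF, by -0.01 ± 0.12 in old minus young (limma, Benjamini-Hochberg adjusted p = 0.841 and 0.969). Of 19 genes of kinases and ubiquitin ligases 0 were called, with a median of 0.02. Tbk1, the kinase that activates IRF3, differed by -0.40 ± 0.13 (adjusted p = 0.167) and Map3k8, a kinase upstream of ERK, by 0.38 ± 0.14 (adjusted p = 0.201). The authors' deposited table gave no call for either in old against young (adjusted p = 0.138 and 0.0722), and called Map3k8 higher in middle-aged against young (log2 fold change 0.59, adjusted p = 0.00329).

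Of 7 transcription factor genes 1 rose, with a median of 0.14. Irf7, the interferon regulatory factor downstream of TLR7 and TLR9, rose 1.64-fold (log2 0.72 ± 0.15; limma, Benjamini-Hochberg adjusted p = 0.0424) and kept its call in 1 of 9 such fits and in 8 of 12 other alternatives. Cebpb, a factor that acts with NF-kB at inflammatory genes, had log2 values of 8.71, 8.75 and 8.74 in young, 9.43, 9.95 and 9.50 in middle-aged and 9.42, 9.11 and 9.69 in old libraries. Both later ages lay above every young library. Its old minus young difference was 0.67 ± 0.17 (adjusted p = 0.0722), and in the authors' deposited table its log2 fold change was 1.03 with an adjusted p of 0.000174. Of 14 negative regulators 1 rose, with a median of 0.13. Tank, which binds TRAF proteins and restrains NF-kB in mouse macrophages, rose 1.46-fold (log2 0.54 ± 0.10, adjusted p = 0.0257) and kept its call in 3 of 9 fits and in all 12 other alternatives. Nfkbia, which encodes the NF-kB inhibitor and is itself an NF-kB target, differed by 0.56 ± 0.13 in old minus young (adjusted p = 0.0555) and by 0.71 ± 0.13 in middle-aged minus young (adjusted p = 0.0761). The authors' deposited table called it in both (log2 fold changes 0.65 and 0.75, adjusted p = 0.00148 and 0.000209).

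Of 16 cytokine and other genes that TLR ligands induce, 4 rose and 12 were not called in old against young, with a median of 0.21. The median of the list was 0.33 in middle-aged minus young and -0.03 in old minus middle-aged. Tnf had values of 10.52, 10.86 and 10.91 in young, 11.62, 11.70 and 11.36 in middle-aged and 11.63, 11.66 and 11.75 in old libraries. Both later ages lay above every young library. Tnf rose 1.88-fold in old over young libraries (log2 0.91 ± 0.13; limma, Benjamini-Hochberg adjusted p = 0.00524) and was called whichever library was left out. The chemokine genes Ccl3, Ccl4 and Ccl5 rose 1.67-fold, 1.60-fold and 1.56-fold (adjusted p = 0.0287, 0.043 and just under 0.05), with calls in 4, 3 and 1 of 9 fits and in 10, 7 and 4 of 12 other alternatives. In middle-aged against young libraries limma called 0 of the 79 genes, against 0.114% of all genes, with 23 at an unadjusted p under 0.05, against 11.4%. The authors' deposited table called 16 of them higher and 0 lower there, where 3.26% of genes were higher. In old against middle-aged libraries limma called 0, against 0.174% of all genes, with 16 at that p, against 10.2%. The authors' deposited table called 2 higher and 0 lower there, where 0.859% of genes were higher.

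**Figure D5:**
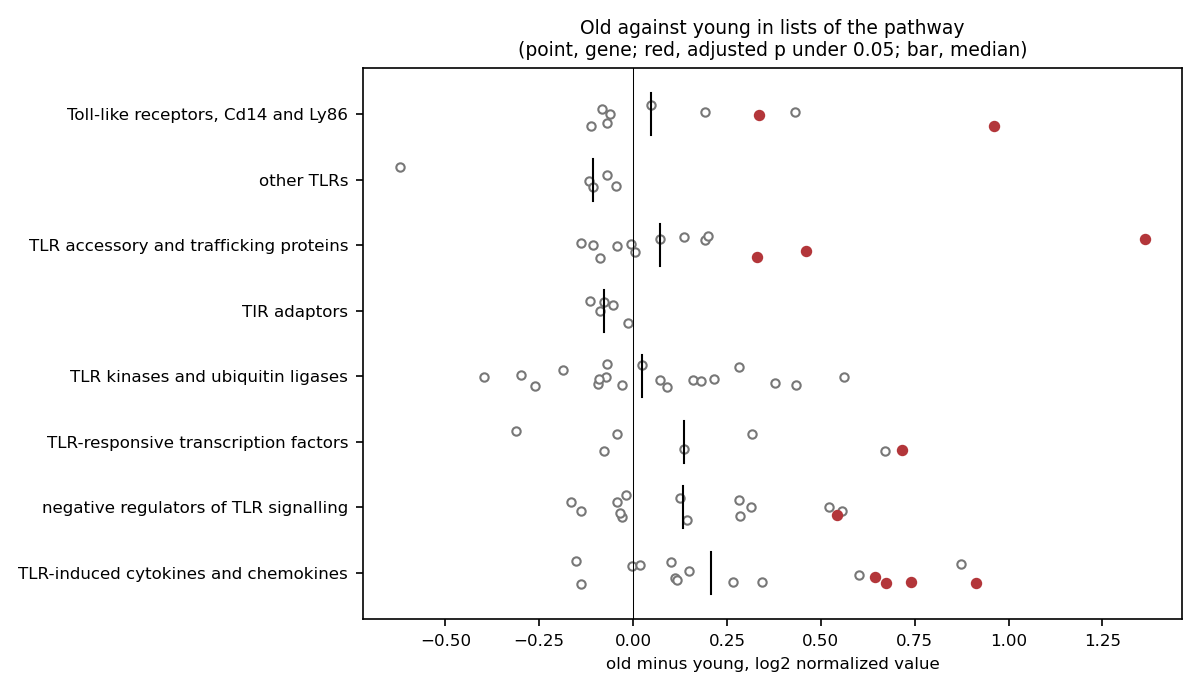
Old minus young difference in log2 normalized value (horizontal axis) for every tested gene of the receptors described here and of 7 lists of the pathway (rows). Red points are called at adjusted p under 0.05 and bars are medians. The point farthest right is Rab7b (1.36), and the called receptor genes are Tlr2 (0.96) and Ly86 (0.33).

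Genes of other cell types were followed beside these values, since neutrophils and monocytes are known to carry Tlr2 and Cd14. Neutrophil markers, 15 of 16 tested with Stfa2 below the filter, had a median old minus young difference of 0.01. Of these 0 were called, against 2.00% of all genes. Their summed level was 270463 to 549318 normalized counts in old and 326555 to 563287 in young libraries, which overlapped. In middle-aged libraries the sum was 492189 to 1064350, and the median against young was 0.50 with 0 called, against 0.114% of all genes. Middle-aged replicate 2 had the highest neutrophil score of the 9 libraries, a mean deviation of 0.95 on the log2 scale. The same library had the highest monocyte score of the 9, 0.43. Its Tlr2 value of 13.73 lay between those of the other middle-aged libraries. Without this library the middle-aged minus young difference of Tlr2 was 0.54 in place of 0.58. The part of neutrophils in the Tlr2 values was not tested.

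Monocyte markers were higher in old than in young libraries, as Tlr2, Cd14 and Ly86 were. All 16 were above the filter, 4 rose (Fn1, Lyz2, Plac8 and Ms4a4c), against 1.70% of all genes, and the median was 0.46. Their summed level was 274853 to 319080 normalized counts in old and 166524 to 208172 in young libraries, without overlap. That sum is weighted towards Lyz2, the marker with the highest values, with means of 17.0 in young and 17.8 in old libraries. The mean deviation over the list, which weighs its genes alike, was 0.07, 0.39 and 0.16 in old libraries. In young libraries it was -0.45, -0.19 and -0.28 on the log2 scale. In middle-aged libraries the sum was 218355 to 338484, above every young library and overlapping the old ones on both sides. The median against young was 0.42 with 0 called, against 0.114% of all genes. The part of these cells in the differences of the receptor genes was not tested. Among 12 markers of border macrophages 2 fell (median -0.46), and among 10 of microglia 2 fell (median -0.22), against 0.301% of all genes. Immediate early genes, the first transcripts of a stimulated cell, had an old minus young median of 0.00. Of 23 tested, 0 were called in that pair, against 2.00% of all genes. The middle-aged minus young median was 0.41 with 0 called, against 0.114% of all genes. In old against middle-aged libraries 2 of the 23 fell, against 0.174% of all genes called in either direction, and the median was -0.42. The part of immediate early genes in the middle-aged values of Tlr2 and Tnf was not tested.

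The genes with the course most like that of the called receptor genes were found by the root mean square difference between log2 values, each centred on its own mean, over 9 libraries. For Tlr2 these were Fn1, which is among the monocyte markers, at 0.0711, Cd274 at 0.0804 and Vim at 0.0891, where the median gene of 12639 compared lay at 0.429. For Ly86 they were Pvrig at 0.0431, Smdt1 at 0.0457 and Fabp3 at 0.0508, where the median gene lay at 0.197.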

How the data were processed

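Microglia RNA was sequenced in 9 libraries, 3 per age, made with a kit for very low input, per the labels' protocols. The authors list DESeq2 1.16.1, STAR 2.5.3, cutadapt 1.13 and CASAVA, and build mm10, per the submitters' processing notes. What each did, the counter and its strand setting were not given in the sources used here. Values by library were deposited on a log2 scale, although the table is called normalized counts. The authors' transformation is not given, so folds from it may be smaller than folds of counts. The authors' comparison tables hold, per the file headers, a mean signal, a log2 fold change, a test score and p-values, and were read as an alternative. The log2 values entered the fit unchanged.

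Genes entered the test where the value reached log2 of 10, 3.32, in at least 3 libraries. All 3 ages were fitted in 1 linear model (limma 3.58.1, R 4.3.3, trended variance), and two-sided p-values were adjusted by Benjamini-Hochberg over 14955 genes, called at 0.05. The fit had 6 residual and 4.57 prior degrees of freedom. The script was tested on simulated data. Exon lengths and coordinates are from GENCODE M21 on GRCm38, the same assembly as mm10, and 99.8% of tested genes had a length. Ratios used exact permutation tests (SciPy 1.17.1). Named genes were the 9 receptor and co-receptor genes, called genes of the 7 pathway lists, and the 2 of each list with the smallest F test p. Genes and lists were chosen with earlier results of these data known, and the sum of Tlr1 and Tlr6 was chosen after seeing the data. Replicate numbers are shared between ages, but nothing in the labels ties them to a batch or litter. Lists of dendritic, T and NK, B, astrocyte, oligodendrocyte, neuron and endothelial markers had old minus young medians of 0.01, 0.21, 0.04, -0.10, 0.10, -0.09 and 0.07. Precision is limited by the number of libraries, and the depth is unknown.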

Additional observations from a re-analysis of the deposited data

How the results depend on the processing

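Of the alternatives run (filters, scalings, pseudocounts, variance options, weighted libraries, the replicate block, 2 ages alone, each library left out, and the authors' deposited table), the old against young call of Tlr2 held in all 21. Among the 18 genes followed, no difference between 2 ages that was called in the main fit changed direction in any of these alternatives. The number of the 9 receptor genes called in old against young was 2, and 1 with the replicate block or with only the 2 ages fitted, where Ly86 was lost (adjusted p = 0.0686 and 0.0843 by limma); it was 3 with the stricter filter, with library weights and in the authors' table, and 1 to 3 when leaving out a library. Quantile normalization called Cd14 (adjusted p = 0.0152) and not Ly86 (0.124). For middle-aged against young, 1 of the 9 was called in place of 0 with library weights and in the authors' deposited table, Tlr2 each time. The F test called 2 of the 9 with quantile normalization and 3 with library weights, in place of 1. The cause was not tested. Over all genes, old against young calls were 299, and 170 without a filter, 1609 with library weights, 185 with the replicate block, 153 with 2 ages alone, 1230 in the authors' table and 83 to 322 when leaving out a library. Middle-aged against young calls were 17, and 10 without a filter, 312 with weights, 11 with the replicate block, 938 in the authors' table, 29 with the stricter filter and 4 to 49 when leaving out a library. Old against middle-aged calls were 26, and 9 without a filter, 47 with the stricter one, 3 without a variance trend, 62 with weights, 14 with the replicate block, 0 with 2 ages alone, 199 in the authors' table and 3 to 23 when leaving out a library. F test calls were 125, and 1275 with weights, 80 with the replicate block and 51 to 141 when leaving out a library. The difference between the steps gave 0, and 0 to 5 when leaving out a library. Correlations of same-numbered libraries after removing age means ran from -0.242 to 0.234, 3 of 9 of them over 0.1, so the numbers were not taken as pairs. The number of libraries sets the precision: intervals of the 7 uncalled genes leave room for old to young ratios from 0.734 for Tlr4 to 1.57 for Cd14.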
